A study of Mus musculus with 8 samples.

Results

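The genes described here are 55 genes of mitosis: the cyclins and kinases that drive a cell into division, the kinetochore and its checkpoint, the kinesin motors, the spindle and midzone proteins, the chromosomal passengers, the enzymes of anaphase, the condensins and the 2 transcription factors that switch many of these genes on. They were chosen by name, with earlier results of these data known. All 55 were measured among 33619 genes and unnamed features on Agilent arrays hybridised in 1 colour (Cy3). The tissue was the mesonephric tubule, the epithelium of a transient embryonic kidney, microdissected from toluidine blue stained cryosections of mouse embryos of strain C57/BL6. There were 5 samples from wild-type embryos, which the design calls senescent, and 3 from embryos labelled as p21 knockout (-/-), which it calls non-senescent. No other allele or agent is named, nor are the embryonic stage and whether each sample came from its own embryo, so p-values measure the spread between these samples, which may be technical. The groups differ by label in p21 alone. The comparison asks how the transcripts of dividing cells differ between wild-type tubules and tubules labelled as lacking this inhibitor of cyclin-dependent kinases.

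In dividing cells, cyclin B with Cdk1 starts mitosis, the spindle captures chromosomes at their kinetochores, and the spindle checkpoint holds back the anaphase-promoting complex until every chromosome is attached. Most of these genes are transcribed only late in the cell cycle, through B-Myb with the MuvB complex and then FoxM1. p21 can shut them off: by inhibiting cyclin-dependent kinases it allows the DREAM complex, which contains MuvB, to occupy their promoters. These transcripts therefore mark cells that are cycling, and they are low in cells that have left the cycle.

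Each value below is the log2 of a probe's processed signal minus the 75th percentile of its array, and a difference is the mean of the 3 arrays labelled p21-null minus the mean of the 5 wild-type arrays. Per array, 82.2% to 89.2% of probes stood well above background, and no spots were saturated. With 5 and 3 arrays, precision is limited by their number. They came from 3 slides, with wild-type replicates 1 to 3 and labelled p21-null replicate 1 on slide 1, the fourth wild-type sample with labelled p21-null replicate 2 on slide 2, and the fifth with labelled p21-null replicate 3 on slide 3. Cdkn1a, the gene of p21, did not check the labels. Its brighter probe averaged 1.68 ± 0.90 (SD, n = 5) in wild type and 1.49 ± 0.58 (SD, n = 3) in the arrays labelled p21-null (two-sided exact permutation test, p = 0.768), and no source used here says where the probes lie relative to the deleted part. For this reason the second group is named by its label, labelled p21-null, on which all directions rest. Of 17 markers of mesonephric duct and tubule, 14 were well above background on all 8 arrays. For Sim1 and Ret, no array of the labelled p21-null group gave a signal well above background.

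Nearly all of the mitotic genes had higher means in the arrays labelled p21-null. Their median difference was 0.68, or 1.61-fold, against a median of -0.03 over all genes tested. The mean was higher for 54 of 55 genes, against 47.7% of all genes, and lower for 1, against 52.3%: the checkpoint gene Mad2l1, at -0.04, which was 0.02 with the array median as scale. There were 12 genes with a difference over 1, that is over 2-fold, against 7.77% of all genes, 26 between 0.5 and 1, and 17 below 0.5. Cdc25b, a phosphatase that activates Cdk1, had the smallest p and a 3.44-fold difference, and Mki67, the Ki-67 antigen of cycling cells, was 2.17-fold higher.

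None of these differences passed the test across the whole table. With limma and Benjamini-Hochberg adjustment, 0 of the 55 genes had an adjusted p under 0.05 (0% of all genes), with 0.283 as the lowest adjusted value. Without adjustment, 16 of 55 had a p under 0.05, all of them higher, against 6.2% of all genes in that direction and 3.91% in the other. The groups were fully separate for 13 of the 55, with the arrays labelled p21-null on top, against 4.43% of all genes, and for 0 in the other direction, against 2.47%. The 16 became 9 without labelled p21-null replicate 1, against 4.83% of all genes, 6 without replicate 3, against 2.97%, and 25 without replicate 2, against 6.42%. The 13 became 40 without replicate 2, where the share of all genes was 10.4%. With slide as a block in the fit, 11 of 55 had an unadjusted p under 0.05 and a higher mean, against 5.64% of all genes. In bulk samples a larger share of dividing cells and more of these transcripts per dividing cell cannot be told apart.

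**Figure D1:**
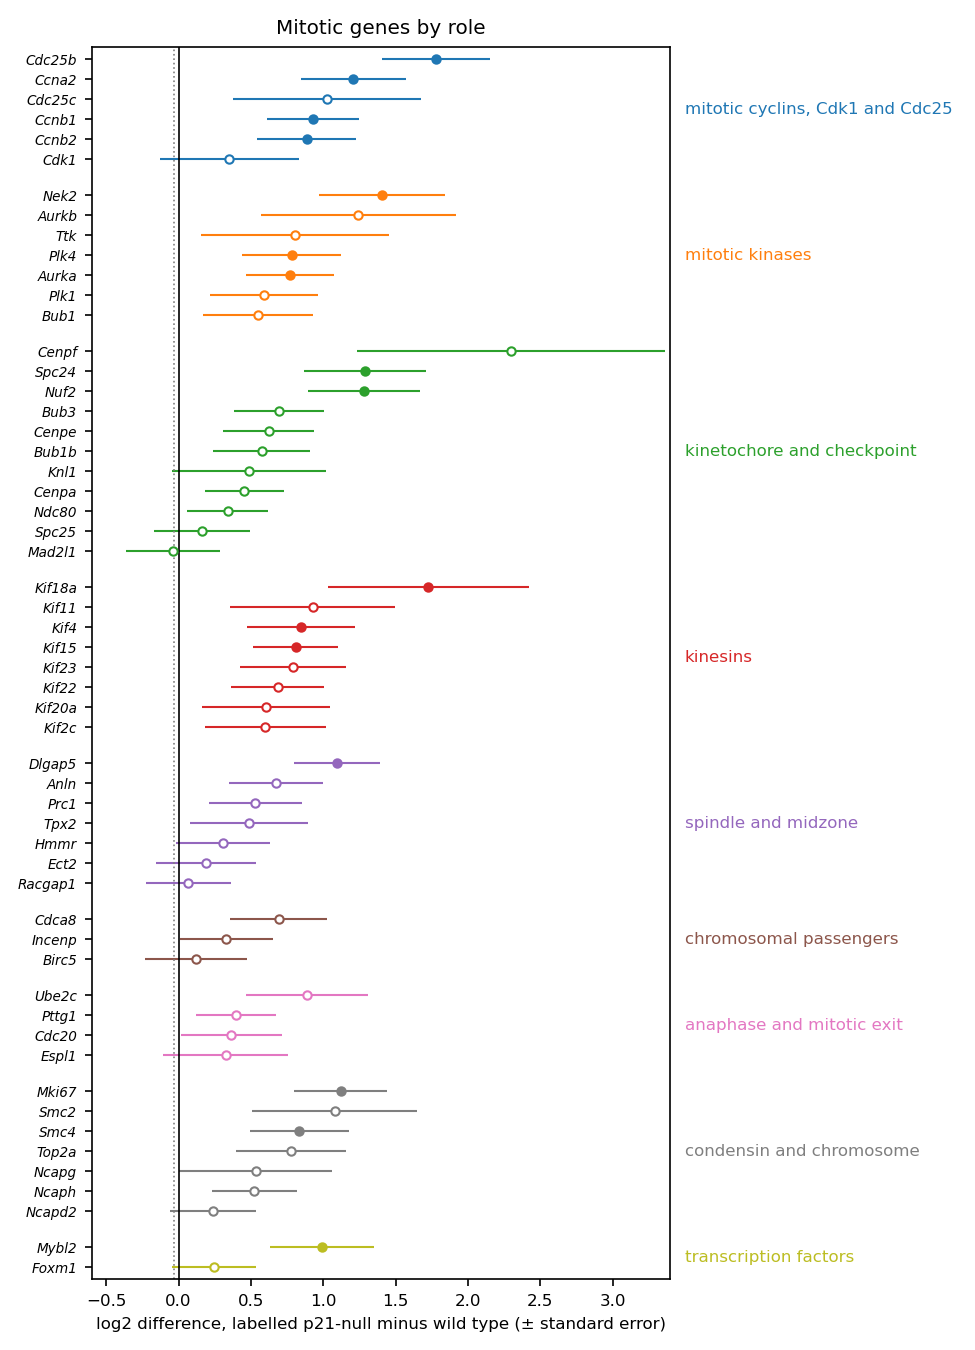
Log2 difference of each mitotic gene (x axis, labelled p21-null minus wild type) with its standard error from limma, grouped by role; filled points have an unadjusted p under 0.05, and the dotted line is the median of all genes at -0.03. All points but that of Mad2l1 (-0.04, or 0.02 with the array median as scale) lie to the right of 0, and the phosphatase Cdc25b, the kinesin Kif18a and the kinetochore gene Cenpf lie farthest out.

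The arrays within a group were not alike, and the order was much the same from gene to gene. Labelled p21-null replicate 2 was the lowest of its group for 45 of the 55 genes. It lay above the wild-type mean for 40, and above every wild-type array for 15. Replicates 1 and 3 of that group lay above every wild-type array for 43 and 44 genes. Such counts for single arrays were not taken over all genes, so they describe only the order of arrays within these 55 genes. Among wild-type arrays replicate 3 was lowest for 29 genes and replicate 2 for 16, while replicate 5 was highest for 24 and replicate 1 for 17. Averaged over the 55 genes, the wild-type arrays stood, in replicate order, at 0.77, 0.42, 0.08, 0.78 and 0.91, and those labelled p21-null at 1.47, 0.95 and 1.56. The groups did not overlap, but labelled p21-null replicate 2 was above wild-type replicate 5 by a margin far smaller than the wild-type SD of 0.34. Within slide 1 the arrays labelled p21-null were higher for 51 of 54 genes, with a median difference of 1.02. Within slide 2 they were higher for 35 of 55, with a median of 0.15, and within slide 3 for 49 of 55, with a median of 0.64. Over all genes these shares were 42% on slide 1, 56% on slide 2 and 51.4% on slide 3. The medians over all genes were -0.17, 0.13 and 0.02 in the same order. So on slide 2 the excess in share was small, and the median of 0.15 was close to that of all genes. The median residual SD was 0.43 for the mitotic genes and 0.59 over all genes. The mitotic genes were also brighter, with a mean signal in wild type of 0.59 against -1.24, and the 2 sets were not matched for signal.

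**Figure D2:**
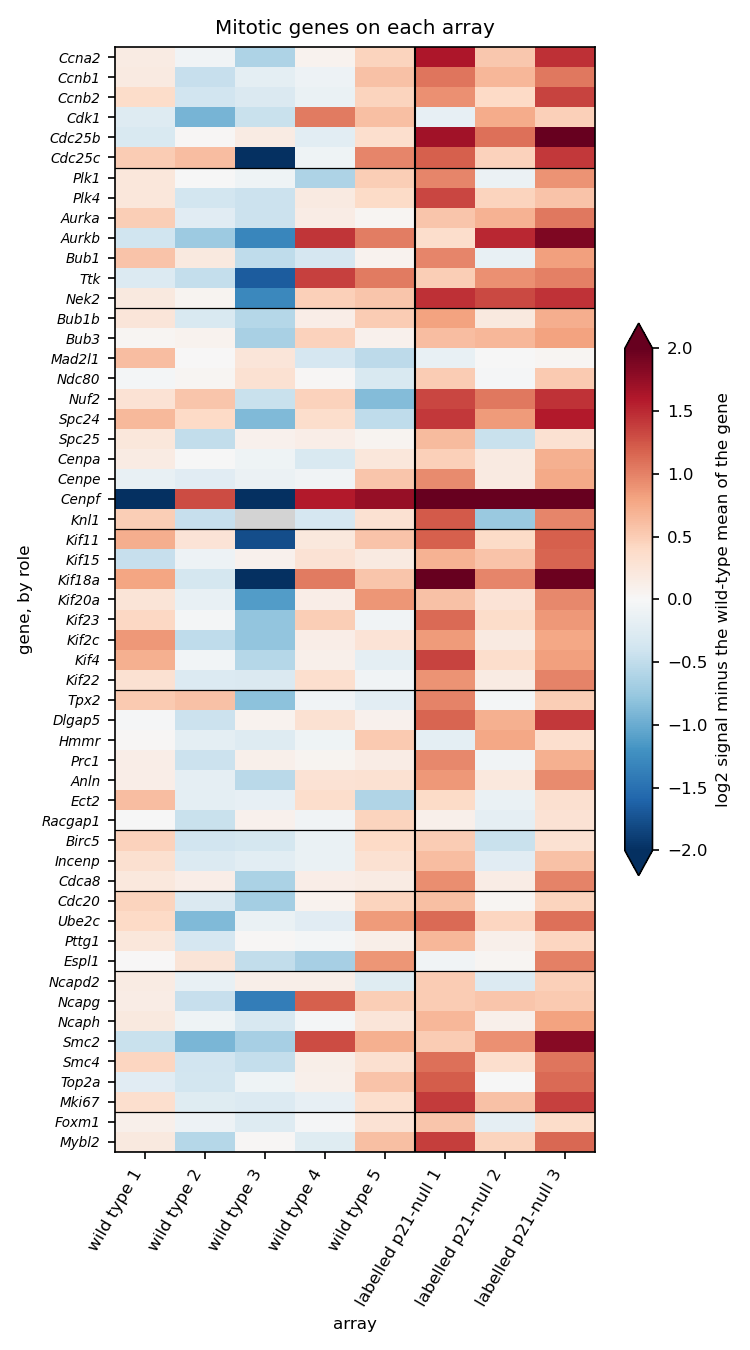
Log2 signal of each mitotic gene (rows, by role) on each array (columns) minus the gene's wild-type mean; colours are limited to the range from -2 to 2, and grey is the missing value of Knl1. The columns of labelled p21-null replicates 1 and 3 are red for most genes, labelled p21-null replicate 2 is paler, and wild-type replicate 3 is the bluest.

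The higher means of the mitotic genes came with differences in markers of other cells. Erythroid markers were higher for 20 of 22 measured genes, with list means of 0.50 to 2.58 over wild-type arrays and 2.72 to 3.57 over arrays labelled p21-null, and each of these markers was well above background on at least 1 array of either group. Hepatocyte markers were higher for 18 of 18, with list means of -0.79 to 2.99 against 2.78 to 4.18. Macrophage markers were higher for 15 of 19, with -0.81 to 0.51 against 0.33 to 1.03. Of all genes 47.7% had higher means. Epor, the erythropoietin receptor, differed by 2.54 (SE 0.56), and the 2 erythroid markers with lower means were the globin genes Hbb-y and Hbb-bt, at -0.05 and -0.04. The liver genes Hp and Plg differed by 3.39 and 3.19, and Tyrobp and Coro1a of the macrophage list by 1.62 and 1.57. Markers of neural cells were lower for 18 of 19, and those of the mesonephric duct and tubule for 13 of 17, against 52.3% of all genes. The mesonephric list means were -2.45 to 0.02 in wild type and -2.43 to -1.67 in the arrays labelled p21-null. On no array labelled p21-null were 1 neural marker and the mesonephric markers Sim1 and Ret well above background. They passed the filter through wild-type arrays alone, so their direction adds nothing to these counts. The median difference was 2.60 for hepatocyte, 1.98 for erythroid and 1.16 for macrophage markers, against 0.68 for the mitotic genes. It was -1.59 for neural and -0.83 for mesonephric markers, with the markers that passed through wild-type arrays alone included. Germ cell markers had a median difference of 0.20 and endothelial markers one of 0.12. The part of any of these cells in the mitotic result was not tested.

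**Figure D3:**
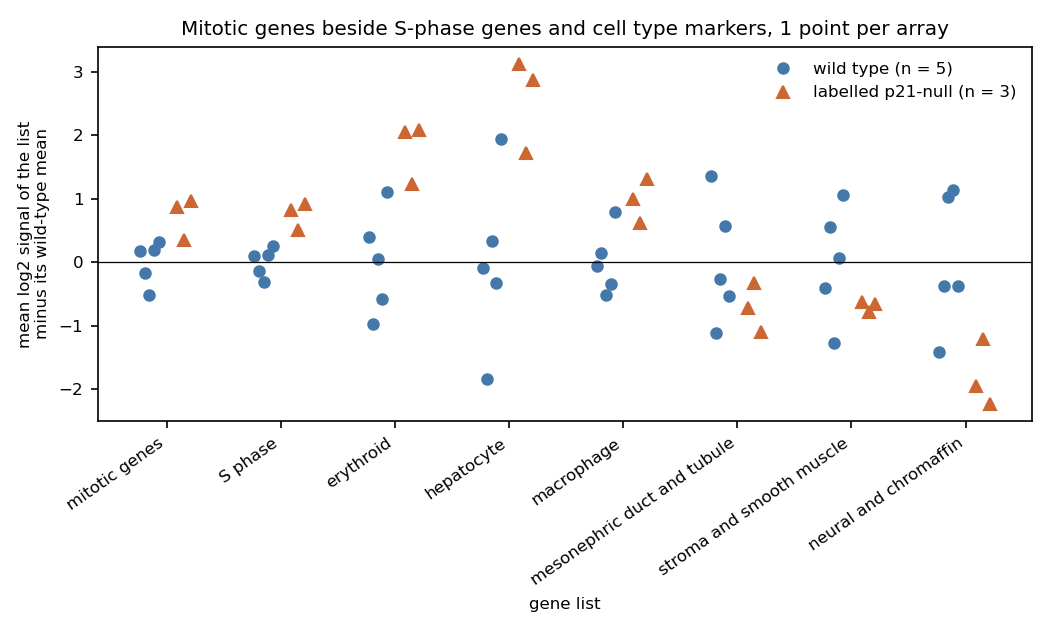
Mean log2 signal of each gene list (x axis) on each array minus the list's wild-type mean (y axis), with 1 point per array. The mitotic and S-phase lists and the erythroid markers have each of the 3 labelled p21-null arrays above all 5 wild-type arrays, while the mesonephric markers do not separate the groups.

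Many promoters of the mitotic genes held 1 or both of 2 short motifs. RefSeq promoter windows of assembly GRCm38.p6, each running from 250 bases before to 50 after a transcription start, were at hand for 45 of the 55 genes, in 48 windows. The first motif is the cell cycle genes homology region (CHR), searched as TTTGAA on both strands, which MuvB complexes bind. The second is the CCAAT box bound by NF-Y, searched as CCAAT on both strands; the letters of the 2 motifs do not overlap one another in the stretches shown. A CHR match was found in 72.9% of the 48 windows and in 17.9% of 32851 windows of all genes. Matches to 2 or more CCAAT boxes were found in 47.9% against 11.7%, and a CHR together with 2 or more CCAAT boxes in 41.7% against 2.09%. Neither motif was found in 16.7% of the 48 windows and in 51.7% of all windows. The following 7 stretches are the 150 bases before the start, 5′ to 3′ on the strand of the gene, with matches on either strand in capitals. They show Mki67, Top2a, Ube2c, Cdk1 and Cdc20, whose stretches hold both motifs, Ccnb2, whose stretch holds CCAAT boxes while its CHR matches lie elsewhere in the window, and Nuf2, whose stretch holds neither. Mki67 lies at chr7:135716380-135716529 on the minus strand, Top2a at chr11:99024190-99024339 on the minus strand and Ube2c at chr2:164769779-164769928 on the plus strand. Cdk1 lies at chr10:69352913-69353062 on the minus strand, Cdc20 at chr4:118437344-118437493 on the minus strand, Ccnb2 at chr9:70421555-70421704 on the minus strand and Nuf2 at chr1:169531465-169531614 on the minus strand.
Mki67: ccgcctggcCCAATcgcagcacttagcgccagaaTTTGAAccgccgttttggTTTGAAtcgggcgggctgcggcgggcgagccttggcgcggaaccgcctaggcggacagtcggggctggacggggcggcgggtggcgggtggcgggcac
Top2a: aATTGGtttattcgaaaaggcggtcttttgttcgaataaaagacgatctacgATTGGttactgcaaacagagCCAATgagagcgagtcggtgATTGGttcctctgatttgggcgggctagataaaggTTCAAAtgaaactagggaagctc
Ube2c: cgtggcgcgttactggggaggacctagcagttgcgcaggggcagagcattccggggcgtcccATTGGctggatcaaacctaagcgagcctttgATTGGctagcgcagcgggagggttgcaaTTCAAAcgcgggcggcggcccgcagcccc
Cdk1: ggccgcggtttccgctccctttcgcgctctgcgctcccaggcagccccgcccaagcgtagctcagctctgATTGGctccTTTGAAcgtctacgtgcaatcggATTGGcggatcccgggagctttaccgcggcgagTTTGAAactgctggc
Cdc20: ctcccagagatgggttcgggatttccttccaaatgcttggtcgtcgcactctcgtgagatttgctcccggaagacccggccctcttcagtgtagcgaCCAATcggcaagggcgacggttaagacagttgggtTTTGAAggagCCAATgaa
Ccnb2: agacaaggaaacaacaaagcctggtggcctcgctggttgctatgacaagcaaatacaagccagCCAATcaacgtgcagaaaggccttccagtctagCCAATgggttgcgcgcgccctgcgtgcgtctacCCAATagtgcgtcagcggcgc
Nuf2: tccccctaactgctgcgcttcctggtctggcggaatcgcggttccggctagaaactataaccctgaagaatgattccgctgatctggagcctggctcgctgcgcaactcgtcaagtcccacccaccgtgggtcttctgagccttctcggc

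Genes with and without the motifs had differences of similar size. The 32 genes with a CHR match in a window had a median difference of 0.64 and a range of 0.07 to 2.30. The 13 without one had a median of 0.78 and a range of -0.04 to 1.78. Genes with a CHR and 2 or more CCAAT boxes, 18 in number, had a median of 0.69. A match to these letters is not evidence of binding, and a window without them says nothing of the factors.

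By role, the cyclins with Cdk1 and its activating phosphatases had the largest median difference of the 9 groups, at 0.98 over 6 genes. The kinesins followed at 0.80, the mitotic kinases at 0.78 and the condensin and chromosome genes at 0.78. The 2 transcription factors stood at 0.62, the kinetochore and checkpoint genes at 0.57 and the spindle and midzone genes at 0.49. The genes of anaphase and mitotic exit, at 0.38, and the chromosomal passengers, at 0.33, were lowest. Neighbours in this order lay closer together than the wild-type SD of the group means, which ran from 0.19 to 0.56, and differences between the groups were not tested. The passenger median was 0.78 with the dimmest probe of each gene in place of the brightest. The spindle and midzone median was 0.28 with wild-type replicate 3 left out and 0.75 with labelled p21-null replicate 2 left out.

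**Figure D4:**
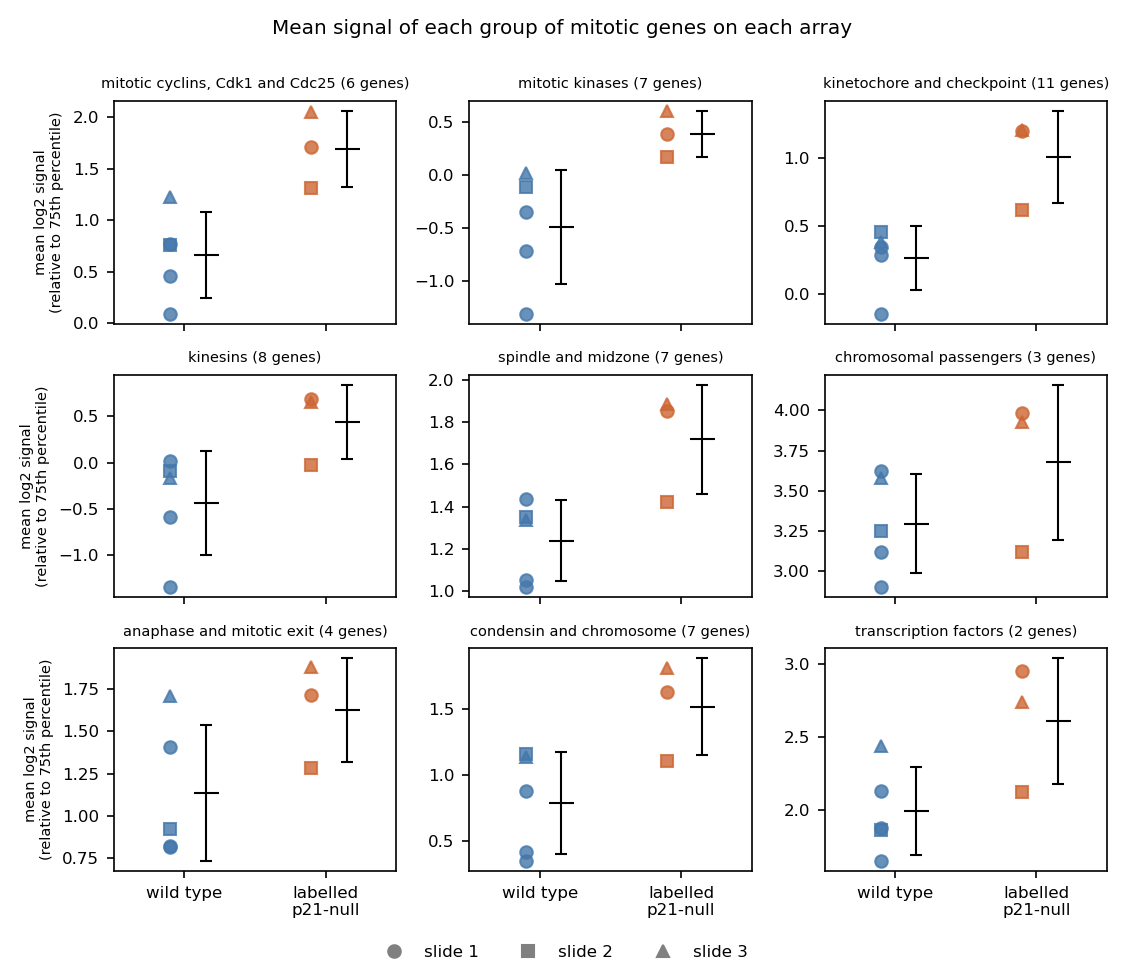
Mean log2 signal of each of the 9 groups of mitotic genes on each array (y axis, on the scale of the text, with its own range in each panel), with bars for the mean ± SD over 5 wild-type and 3 labelled p21-null arrays and symbols for the slide. The arrays labelled p21-null lie above all wild-type arrays for the cyclins, kinases and kinetochore genes, and overlap with them in the other 6 panels.

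Among the cyclins and their partners, Cdc25b stood out. Its signal was -0.20, 0.14, 0.27, -0.10 and 0.45 on the wild-type arrays, in replicate order, and 1.79, 1.21 and 2.69 on those labelled p21-null. The groups were well apart, and the difference was 1.72, 1.31 and 2.24 within slides 1, 2 and 3. The difference of 1.78 had a standard error (SE) of 0.37 (limma adjusted p = 0.283), and the two-sided exact permutation test over the 56 splits, used for single genes from here on, gave p = 0.0179, the smallest it can give. Ccna2, cyclin A2, which acts from S phase into mitosis, was at 1.13, 0.89, 0.35, 1.04 and 1.41 in wild type and at 2.58, 1.51 and 2.42 in the arrays labelled p21-null. These groups did not overlap either, and the difference was 1.21 (SE 0.36, limma adjusted p = 0.327, exact permutation p = 0.0179). Ccnb1, cyclin B1, the partner of Cdk1 at mitotic entry, was at 3.60, 2.95, 3.21, 3.31 and 4.0 against 4.48, 4.08 and 4.47, again with no overlap, though labelled p21-null replicate 2 was close to wild-type replicate 5. Its difference was 0.93 (SE 0.32), and its other 2 probes gave 0.32 and 1.08. Cdk1 itself, the kinase these cyclins activate, overlapped fully. It was at 1.34, 0.67, 1.16, 2.64 and 2.20 in wild type and at 1.44, 2.34 and 2.08 in the arrays labelled p21-null, so that wild-type replicate 4 was the highest of the 8. The difference was 0.35 (SE 0.48), although both motifs stand in its promoter stretch above. Its other 2 probes gave 0.55 and 0.61. Within slides 1, 2 and 3 the difference on the brightest probe was 0.39, -0.30 and -0.12. The other 2 genes of the group, Ccnb2 and Cdc25c, had differences of 0.89 and 1.02; the wild-type values of Cdc25c ran from -5.16 to -2.16.

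All 7 mitotic kinases had higher means in the arrays labelled p21-null, by 0.55 to 1.41. Nek2, a centrosomal kinase that helps to part the spindle poles, was at -0.13, -0.27, -1.61, 0.15 and 0.23 in wild type and at 1.13, 0.99 and 1.12 in the arrays labelled p21-null. The latter were tightly placed, above every wild-type array, and the difference was 1.41 (SE 0.43; limma adjusted p = 0.336; exact permutation p = 0.0179). Aurka, the Aurora kinase of the spindle poles, was at 1.82, 1.10, 0.89, 1.47 and 1.36 against 1.88, 2.02 and 2.38. Its groups were separated by a narrow margin, and the difference was 0.77 (SE 0.31). Plk1, the Polo kinase needed at many steps of mitosis, was at 0.35, 0.12, 0.04, -0.48 and 0.62 against 1.12, 0.02 and 1.02. Here labelled p21-null replicate 2 lay among the wild-type arrays, and the difference was 0.59 (SE 0.37). Ttk, the kinase Mps1 that starts checkpoint signalling, was the least clear of the group, at -2.02, -2.22, -3.40, -0.38 and -0.70 against -1.26, -0.83 and -0.74. The wild-type arrays of slides 2 and 3 were above all arrays labelled p21-null, and those of slide 1 below them, and the difference was 0.80 (SE 0.65). Of the other 3, Plk4, which starts centriole duplication, had groups that did not overlap (0.78, SE 0.34). Those of Aurkb, the Aurora kinase of the passenger complex (1.24, SE 0.67), and the checkpoint kinase Bub1 (0.55, SE 0.38) overlapped. Wild-type Aurkb was at -1.25, -1.58 and -2.16 on slide 1 and at 0.57 and 0.17 on slides 2 and 3. Its difference within slides 1, 2 and 3 was 1.17, 0.09 and 0.84.

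In the kinetochore, subunits of 1 complex differed by unequal amounts. The Ndc80 complex, which grips the microtubule, has 4 subunits. Nuf2 was at -0.98, -0.71, -1.70, -0.80 and -2.12 in wild type and at 0.07, -0.20 and 0.19 in the arrays labelled p21-null, a difference of 1.28 (SE 0.39). Spc24 was at 0.65, 0.40, -0.89, 0.36 and -0.51 against 1.42, 0.86 and 1.59, a difference of 1.29 (SE 0.42). In both, each array labelled p21-null was above every wild-type array, with limma adjusted p-values of 0.329 and 0.362. Ndc80 and Spc25, the other 2 subunits, had differences of 0.34 (SE 0.28) and 0.16 (SE 0.33), and their groups overlapped. Whether the subunits differed from each other was not tested.

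The checkpoint proteins were no more uniform. Mad2l1, which binds and blocks Cdc20, was at 4.30, 3.69, 3.92, 3.34 and 3.15 in wild type and at 3.54, 3.68 and 3.72 in the arrays labelled p21-null. The arrays labelled p21-null all lay inside the wild-type range, and the difference was -0.04 (SE 0.33). That sign is that of the brightest probe alone, for the other 2 probes of the gene gave 0.70 and 0.35, and it turned with the array median as scale (0.02) and with slide as a block (0.07). Bub3 had a difference of 0.69 with no overlap, and Bub1b, its partner in the inhibitory complex, 0.57 with overlap. The centromeric histone Cenpa and the kinetochore motor Cenpe had differences of 0.45 and 0.62. Knl1, the scaffold that recruits Bub proteins, had 0.49 over 4 wild-type arrays, since its spot on wild-type replicate 3 was an outlier and was left out. Cenpf had the largest difference, 2.30, but with a standard error of 1.07. It was not well above background on wild-type replicates 1 and 3, where it stood at -7.81 and -7.94, while the other 3 wild-type arrays ran from -4.24 to -3.80 and the arrays labelled p21-null from -3.55 to -3.09.

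The 8 kinesins had differences of 0.60 to 1.73, and 3 of them an unadjusted p under 0.05, against 6.2% of all genes. Kif15, which keeps the spindle poles apart together with Kif11, was at -1.99, -1.63, -1.43, -1.23 and -1.35 in wild type and at -0.83, -0.96 and -0.37 in the arrays labelled p21-null. The groups did not overlap, and the difference was 0.81 (SE 0.30; limma adjusted p = 0.404; exact permutation p = 0.0179). Kif18a, which damps chromosome movements, had the largest difference of the group at 1.73 (SE 0.70). It was at -2.37, -3.52, -5.21, -2.12 and -2.61 against -0.93, -2.19 and -1.20, and labelled p21-null replicate 2 was below wild-type replicate 4. Kif20a, a motor of the spindle midzone, had the largest p of the group, with -0.64, -1.04, -2.0, -0.76 and -0.01 against -0.31, -0.62 and 0.07. Its groups overlapped broadly, and the difference was 0.61 (SE 0.44). The other 5, Kif4, Kif11, Kif22, Kif23 and Kif2c, had differences of 0.60 to 0.93, and each overlapped.

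The 7 spindle and midzone genes had differences of 0.07 to 1.09, and the groups of 1 of them did not overlap, against 4.43% of all genes with the arrays labelled p21-null on top. Dlgap5, a spindle assembly factor, was at 0.51, 0.10, 0.60, 0.83 and 0.62 in wild type and at 1.69, 1.24 and 1.96 in the arrays labelled p21-null. The groups were separate, the difference was 1.09 (SE 0.30; limma adjusted p = 0.297; exact permutation p = 0.0179), and its second probe gave 1.22. Anln, the actin-binding anillin of the cleavage furrow, was at -0.05, -0.37, -0.73, 0.10 and 0.12 against 0.68, 0.03 and 0.76. Labelled p21-null replicate 2 lay within the wild-type range, and the difference was 0.67 (SE 0.33). Racgap1, a subunit of centralspindlin, was at 1.43, 1.0, 1.54, 1.38 and 1.89 against 1.54, 1.26 and 1.74. These values were intermixed, with a difference of 0.07 (SE 0.29) on the brightest probe and 0.70 on its second. The bundling protein Prc1, the activator Tpx2, the hyaluronan-mediated motility receptor Hmmr and the cytokinesis gene Ect2 had differences of 0.53, 0.49, 0.31 and 0.19, and all overlapped.

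The 3 chromosomal passengers had the lowest median of the 9 groups. Cdca8, borealin, was at 2.50, 2.43, 1.65, 2.42 and 2.45 in wild type and at 3.23, 2.43 and 3.29 in the arrays labelled p21-null. Replicates 1 and 3 labelled p21-null were above all others, replicate 2 was level with wild type, and the difference was 0.69 (SE 0.34). Incenp, the scaffold of the complex, was at 3.71, 3.12, 3.20, 3.27 and 3.70 against 4.02, 3.18 and 3.99, a difference of 0.33 (SE 0.32). Birc5, survivin, was at 4.66, 3.81, 3.85, 4.06 and 4.58 against 4.70, 3.74 and 4.50. On this probe both the highest and the lowest of the 8 arrays were labelled p21-null, and the difference was 0.12 (SE 0.35), or -0.07 without labelled p21-null replicate 1. The other 2 probes of Birc5 gave 0.83 and 0.73.

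Of the 4 genes that carry out anaphase, 1 had a difference over 0.5. Ube2c, the ubiquitin-conjugating enzyme of the anaphase-promoting complex, was at 3.42, 2.14, 2.90, 2.79 and 3.88 in wild type and at 4.15, 3.45 and 4.13 in the arrays labelled p21-null. Labelled p21-null replicate 2 lay below wild-type replicate 5, and the difference was 0.89 (SE 0.42); the second probe gave 0.91. Cdc20, the activator of that complex, was at 3.62, 2.89, 2.49, 3.25 and 3.62 against 3.78, 3.22 and 3.61, which overlapped, with a difference of 0.36 (SE 0.35). Pttg1, securin, was at 1.20, 0.63, 0.99, 0.93 and 1.08 against 1.63, 1.06 and 1.39, with a difference of 0.39 (SE 0.28) and an overlap of labelled p21-null replicate 2 alone. Espl1, separase, which securin holds inactive, was at -2.61, -2.36, -3.11, -3.29 and -1.74 against -2.70, -2.59 and -1.61. Its values were mixed, and the difference of 0.32 (SE 0.43) was -0.02 without labelled p21-null replicate 3.

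Of the genes for chromosome structure, Mki67 was the clearest. It was at 2.93, 2.35, 2.32, 2.43 and 2.92 in wild type and at 4.0, 3.18 and 3.96 in the arrays labelled p21-null. The groups did not overlap, and the difference was 1.12 (SE 0.32; limma adjusted p = 0.311; exact permutation p = 0.0179); its second probe gave 0.92. Smc4, a core subunit of condensin, was at 2.28, 1.47, 1.37, 1.97 and 2.18 against 2.96, 2.19 and 2.92. Here labelled p21-null replicate 2 was just below wild-type replicate 1, and the difference was 0.84 (SE 0.34). Top2a, the topoisomerase that untangles sister DNA, was at -0.57, -0.72, -0.44, -0.26 and 0.22 against 0.86, -0.36 and 0.77. Labelled p21-null replicate 2 was again among the wild-type values, and the difference was 0.78 (SE 0.38). Ncapd2, a condensin I subunit, was at 2.06, 1.73, 2.01, 2.01 and 1.64 against 2.40, 1.62 and 2.37, where replicate 2 was the lowest of all 8 arrays and the difference was 0.24 (SE 0.30). The condensin genes Smc2, Ncapg and Ncaph had differences of 1.08, 0.53 and 0.52 and overlapped. Within slides 1, 2 and 3 the difference of Smc2 was 1.18, -0.39 and 1.10.

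The 2 transcription factors of the mitotic program differed in clarity. Mybl2, B-Myb, was at 2.28, 1.51, 2.10, 1.85 and 2.69 in wild type and at 3.47, 2.54 and 3.23 in the arrays labelled p21-null; the difference was 0.99 (SE 0.36) and 0.87 on its second probe. The overlap was that of labelled p21-null replicate 2 with wild-type replicate 5. Foxm1 was at 1.98, 1.78, 1.64, 1.87 and 2.18 against 2.44, 1.71 and 2.26. Its groups overlapped, with a difference of 0.24 (SE 0.29) on the brightest probe and -0.32 on the other.

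Several of the smallest differences depended on which probe stood for the gene. Of the 55 genes 39 had 1 probe and 16 had several. All probes of a gene had a higher mean in the arrays labelled p21-null for 14 of these 16, the exceptions being Mad2l1 and Foxm1. The brightest probe, which stands for the gene here, gave the smallest difference of its gene in 10 of 16 and the largest in 5. Pttg1 had the widest gap, with 0.39 against 1.78 on a second probe, which was well above background on 6 of 8 arrays.

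**Figure D5:**
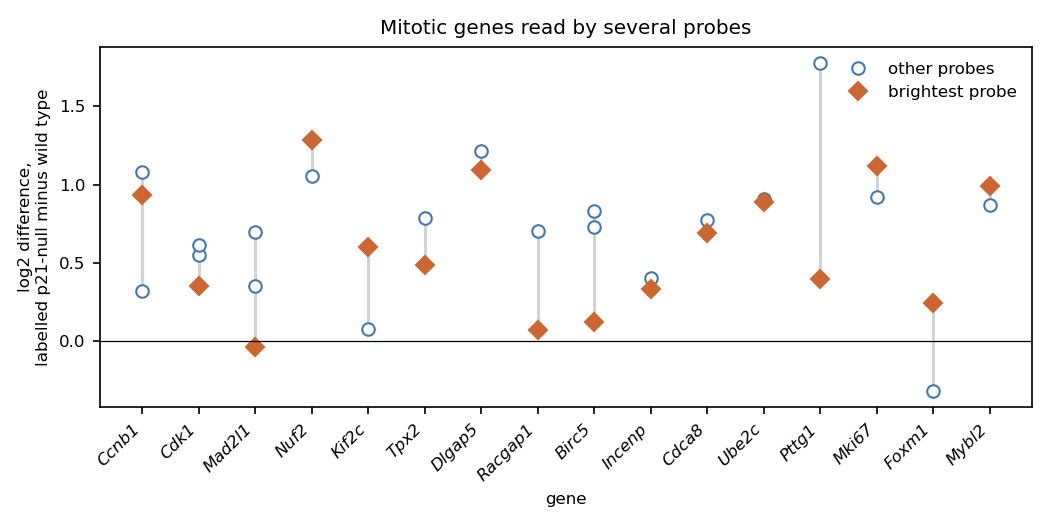
Log2 difference (y axis, labelled p21-null minus wild type) of every probe of the 16 mitotic genes with several probes (x axis); the diamond is the brightest probe. The brightest probes of Mad2l1, Racgap1 and Birc5 lie near 0, below the other probes of those genes, while the second probe of Foxm1 lies below 0.

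Other genes of mitosis and its regulators, from 6 further lists, mostly had higher means too, with a smaller median difference. Of 126 measured, 106 had higher means, against 47.7% of all genes, and 20 lower, against 52.3%. The median was 0.35. Among the 126 were 12 subunits of the MuvB and DREAM complexes, described at the end. Those with an unadjusted p under 0.05 numbered 27 higher, against 6.2% of all genes, and 0 lower, against 3.91%. With adjustment over all genes limma called 0. Further centromere and outer kinetochore genes were closest to the 55 genes, with 34 of 35 higher and a median of 0.71. Cenph, a subunit of the inner kinetochore, had a difference of 1.05 (SE 0.26), and Kntc1, which helps to recruit dynein, one of 1.06 (SE 0.39). The 1 gene with a lower mean was Cenpb, which binds centromeric satellite DNA, at -0.31 (SE 0.32). Of spindle, centrosome and cytokinesis genes 23 of 27 were higher, with a median of 0.45; Stil, needed for centriole assembly, had 0.88 and Nusap1, a spindle protein, 0.99. Cohesin and condensin II genes had 14 of 15 higher and a median of 0.34, with Wapl, which releases cohesin, at 1.04 and Ncaph2 at 0.80. Genes of mitotic entry control had 14 of 17 higher and a median of 0.37. Among them Ccnf, cyclin F, was at 0.91, and Stmn1, a tubulin-binding protein, at -0.75 (SE 0.38).

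The anaphase-promoting complex had the smallest median of the 6 lists. Of 20 genes for its subunits and regulators 13 had higher means, against 47.7% of all genes, and 7 lower, against 52.3%, with a median difference of 0.07. The 2 genes of smallest p on the higher side were regulators and not core subunits: Fbxo5, the inhibitor Emi1, at 0.99 (SE 0.34), and Fzr1, the activator Cdh1, at 0.63 (SE 0.27). The core subunits Cdc16 and Anapc4 stood at -0.47 (SE 0.29) and -0.40 (SE 0.31). S-phase genes were higher for 41 of 41, against 47.7% of all genes, with a median of 0.71 against 0.68 for the mitotic genes. An unadjusted p under 0.05 was found for 17 of them, against 6.2% of all genes.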

How the data were processed

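Total RNA from microdissected mesonephric tubules (5 wild-type and 3 labelled p21-null samples) was hybridised to 1-colour arrays. Per the file headers, the deposited intensities came from Agilent Feature Extraction 10.7.3.1, already corrected for background and slide trends, with no scaling between arrays. The authors also deposited a table of log2 values; the submitters' processing notes name limma.

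The log2 processed intensity minus the 75th percentile of the array over 59305 non-control spots was used. Outlier spots were left out and spots of 1 probe averaged. Accessions gave a symbol for 26056 of 55681 probes through RefSeq (GRCm38.p6). Probes well above background on at least 3 of 8 arrays were kept (50046), and the brightest stood for a gene (33619 genes and features). The comparison used limma 3.58.1 (R 4.3.3) with no covariate, adjusting over all genes. On simulated data for this comparison (33619 genes) it recovered 0% of 50 genes shifted by 1 on the log2 scale, 32% shifted by 2 and 72% shifted by 4, with 2 false calls. The genes, roles and lists were chosen with earlier results of these data known. Values on each array are given for the 2 genes of smallest and the 1 of largest p in each role and for 7 well-known genes. From other mitotic lists the 2 of smallest p in each direction could be named, and from marker lists the 2 of smallest p; Hbb-y and Hbb-bt were added after their values were seen, and 1 erythroid marker is not reported here. Alternatives were other scaling, background correction, filters, probe rules, slide and replicate blocks, the deposited log2 table, array weights, and each array left out in turn.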

Additional observations from a re-analysis of the deposited data

Results flagged for a closer look

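There were 65 groups of wild-type values, for 55 genes and 10 list means. In 7 of them 1 array was set apart from the rest by a gap over 0.71 of the group's range. That is Dixon's critical value for 5 samples. Knl1 had only 4 wild-type values, so it does not apply to that gene, which was not among the 7. Chance flags about 1 in 20, and the groups share arrays. Wild-type replicate 3 was low for Nek2 (-1.61, the others from -0.27 to 0.23), Kif11 (-3.20, the others from -1.23 to -0.71), Cdca8 (1.65, the others from 2.42 to 2.50) and the mean of the kinetochore and checkpoint genes (-0.14, the others from 0.29 to 0.46). Wild-type replicate 2 was low for Spc25 (2.87, the others from 3.41 to 3.58) and Prc1 (1.47, the others from 1.95 to 2.04). Wild-type replicate 5 was high for Cenpe (1.28, the others from 0.50 to 0.65). The 3 arrays labelled p21-null were too few for this check.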

How the results depend on the processing

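The higher means of the mitotic genes kept their direction under all 20 alternatives: between 52 and 55 genes were higher, and the median difference ran from 0.53 to 0.90, both ends on leaving out an array. No mitotic gene passed an adjusted p of 0.05 under any of them. The number at an unadjusted p under 0.05, 16 (6.2% of all genes), was 29 with array weights (10.1% of all genes). It was 11 with slide as a fixed block (5.64%), and ran from 6 to 25 on leaving out 1 array (2.97% to 7.03%). The number with separate groups, 13 (4.43% of all genes), ran from 13 to 40 on leaving out 1 array (5.03% to 10.4%). Under the other alternatives it ran from 12 to 16 (4.18% to 4.84%). Over all genes the adjusted count of 0 was 3 with normexp background correction, 8 with array weights and 0 to 1 on leaving out an array. With the dimmest probe the passenger median was 0.78 and that of the transcription factors 0.28. On leaving out an array the spindle and midzone median ran from 0.28 to 0.75. Of 30 genes with values on each array 5 turned sign somewhere. Mad2l1 was 0.024 with the array median, 0.070 with slide as a block, 0.34 over the mean of its probes and 0.35 on the dimmest, and ran from -0.17 to 0.12 on leaving out an array. Foxm1 was -0.038 over the mean of its probes and -0.32 on the dimmest. Racgap1 was -0.050 with the deposited table. On leaving out an array Racgap1 ran from -0.047 to 0.19, Birc5 from -0.072 to 0.41 and Espl1 from -0.018 to 0.54. The causes were not tested. With the replicate number as a block 18 genes had an unadjusted p under 0.05, against 6.79% of all genes in the higher direction. In that fit 54 were higher, against 47.7% of all genes. Same-numbered arrays had deviations that correlated at 0.06, -0.08 and -0.07. Of 3 arrays labelled p21-null 0 matched best with their own number, so the numbers do not pair the samples. Array scaling moved the median of all genes by less than 0.1. A filter asking for all 8 arrays left 53 of the 55 genes.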

Other observations

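Subunits of the MuvB and DREAM complexes, which regulate the mitotic genes, had 8 of 12 higher means in the arrays labelled p21-null, against 47.7% of all genes, and a median difference of 0.20. Tfdp2, a dimerisation partner of E2F factors, had a difference of 1.84 (SE 0.43; limma adjusted p = 0.283), and E2f4, the E2F factor of DREAM, one of 1.26 (SE 0.45; limma adjusted p = 0.396). Rbl2, the pocket protein p130, and E2f5 had differences of -0.35 (SE 0.38) and -0.28 (SE 0.39).

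Markers of gonadal somatic cells had lower means for 8 of 14 and higher means for 6, near the 52.3% of all genes that were lower, with differences from -2.30 to 2.05. The 2 of smallest p were both lower. Dhh, the desert hedgehog ligand of Sertoli cells, had a difference of -1.99 (SE 0.37; limma adjusted p = 0.283). Wt1, which is expressed in coelomic epithelium and gonad, had a difference of -1.33 (SE 0.40; limma adjusted p = 0.325). Stroma and smooth muscle markers had 14 of 16 lower, against 52.3% of all genes, with Twist2, a transcription factor of mesenchyme, at -1.59 (SE 0.65).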
